A study of Homo sapiens with 2 samples.

Results

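Expression of 10 genes of the BCL2 family was read from 2 one-colour Agilent arrays, 1 of SBC-3 cells transfected with #1 siHOTAIR and 1 of SBC-3 cells transfected with siGFP. SBC-3 is an established line of small-cell lung cancer (SCLC), #1 siHOTAIR is a small interfering RNA against the long noncoding RNA HOTAIR, and siGFP is the control siRNA against green fluorescent protein. By the methods of the study, both were transfected with Lipofectamine RNAiMAX, and the labels give neither the time of RNA extraction nor a replicate of either condition. The 10 genes were taken by name, in 3 roles: the anti-apoptotic BCL2, BCL2L1 and MCL1, the effectors BAX and BAK1, and the BH3-only genes BID, BAD, BBC3, PMAIP1 and BCL2L11. A probe belonged to a gene when its RefSeq accession matched that symbol. All 10 genes were found, out of 19062 genes named on the array, by 15 probes with 52 spots in all, and each of these spots was well above background on both arrays.

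The family decides whether the outer membrane of the mitochondrion stays closed during stress. Effectors can form pores through which cytochrome c leaves and activates caspases. Anti-apoptotic members hold effectors and BH3-only members in check, and BH3-only members either block the anti-apoptotic ones or switch the effectors on. SCLC cells are known for high BCL2 levels, and many members are regulated by transcription as well as by phosphorylation and protein turnover, which an array does not measure.

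The siRNA is the labelled difference between the arrays, and it cannot be told apart from the culture and the array it came with. Its guide strand is shown beside that of the control, as the antisense strand from the 5′ end with bases 2 to 8, the seed, in capitals. The TT overhang of siGFP is left out, and the last bases of #1 siHOTAIR are shown as listed. The pairing of the seed with transcripts of the family was not analysed here.
#1 siHOTAIR: uCUCUCUGuacucccguucuu
siGFP: gACGUUGUggcuguuguag

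Each value below is the processed signal of a spot, an intensity with the background subtracted, and each ratio is a log2 ratio of #1 siHOTAIR over siGFP after division by the array's 75th percentile. That percentile was 650 for #1 siHOTAIR and 630 for siGFP. Where signals are joined by "against", #1 siHOTAIR comes first. Since each condition had 1 array, the conditions were not tested against each other and no P-value is given. The error beside a ratio is the measurement SD, taken from probes with 10 spots of like signal, and it covers reading error within the arrays and not the difference between cultures. HOTAIR itself had a signal of 108 against 244, a log2 ratio of -1.22 by a single spot. ACTB had a log2 ratio of -0.02 and GAPDH one of -7.9e-05. Among markers of SCLC and neuroendocrine cells, NEUROD1, ENO2 and DLL3 exceeded background on both arrays and CHGA and NCAM1 on the #1 siHOTAIR array only, whereas INSM1, SYP, UCHL1, GRP and POU2F3 did so on neither. The NCAM1 probe that did so had a mean signal of 38.7, where the lowest signal well above background on that array was 37.3. No lower bound of its fold could be given, and the other NCAM1 probes exceeded background on neither array. The summed signal of 5 leukocyte markers was 345 against 277 and that of 6 fibroblast markers was 4630 against 4186. Most of the fibroblast sum was COL1A2, with 3760 against 3742. COL1A1 had 832 against 415, a log2 ratio of 0.96, and the other fibroblast markers exceeded background on neither array. In a bulk RNA sample, fewer cells of a type and less RNA per cell cannot be told apart.

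No member of the family differed 2-fold between the arrays, where 6.15% of the 13014 named genes compared did. Among the 11869 genes with every spot well above background on both arrays, as is the case for all members, the share was 2.78%. At 1.5-fold, 1 member was higher and 1 was lower in #1 siHOTAIR-transfected cells. The higher one was BAD, by 1.57-fold, and the lower one was BAX, by 1.52-fold. Among all named genes, 8.12% were at least 1.5-fold higher and 8.71% at least 1.5-fold lower. The ratio was above 0 for 3 members and below 0 for 7, with a median of -0.14. Over all named genes compared, it was above 0 for 6807 and below 0 for 6207, with a median of 0.02. In every role with more than 2 members, some were higher and some lower.

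**Figure D1:**
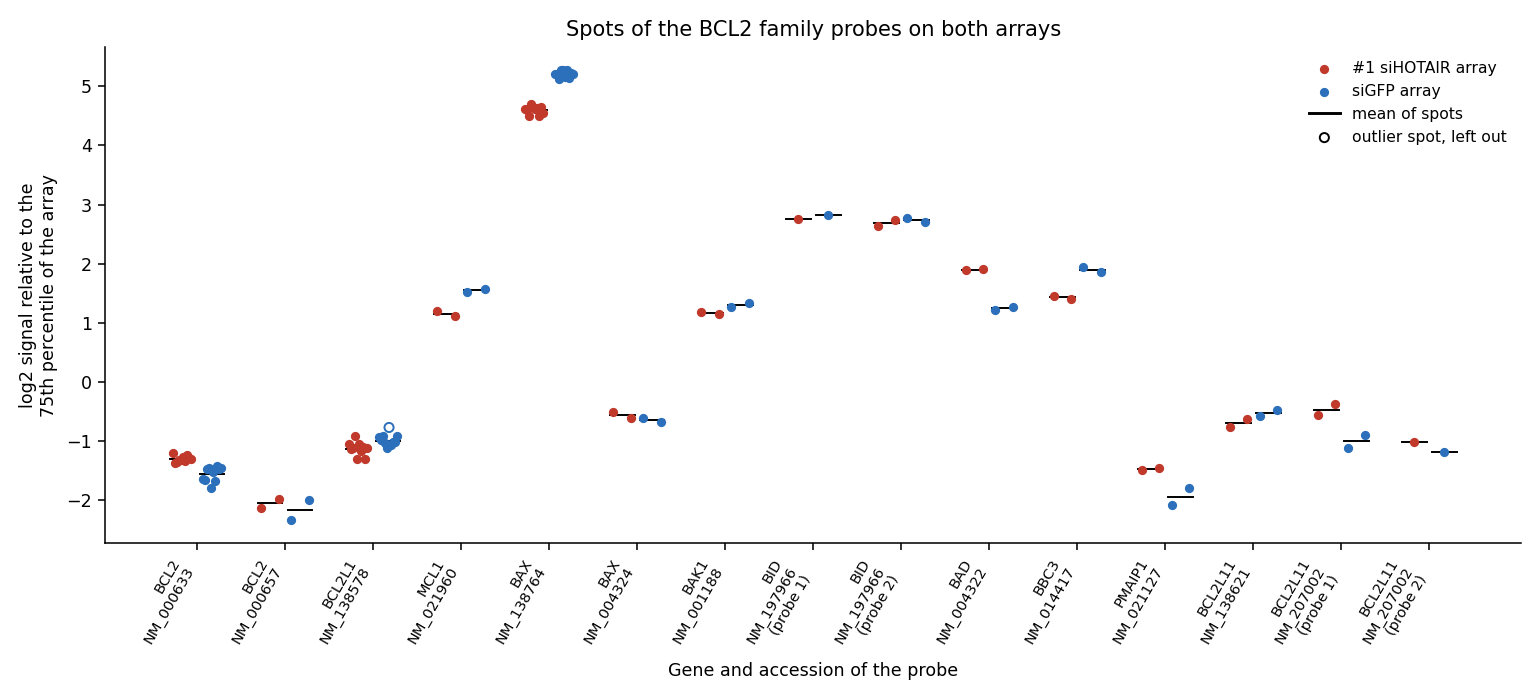
The log2 signal of each spot relative to the 75th percentile of its array (vertical axis) is plotted for the 15 probes of the 10 genes, with #1 siHOTAIR in red, siGFP in blue, a bar at the mean and an open circle for the outlier spot that was left out. The 10 BAX spots of NM_138764 are lower on the #1 siHOTAIR array without overlap, and both BAD spots are higher.

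BCL2, the founding anti-apoptotic member and the target of the drug venetoclax, was the one anti-apoptotic gene of the 3 members with a ratio above 0. Its probe for NM_000633 had 10 spots, with a lowest, median and highest signal of 253, 263 and 285 in #1 siHOTAIR-transfected cells and of 181, 224 and 234 in siGFP-transfected cells. The ratio was above 0 at all 10 positions and the spots of both arrays did not overlap after scaling. The mean log2 ratio was 0.26 with a measurement SD of 0.04, a 1.20-fold difference. A second probe, for NM_000657, had signals of 149 and 165 against 125 and 159. Its spots overlapped between the arrays and its ratio of 0.11 was smaller than its measurement SD of 0.17. The scanner software gives the ratio of 1 spot an error of 0.21 for the first probe and of 0.23 for the second, on the log2 scale. The ratios of 6 of the 10 members were larger than this error of 1 spot. Those of BCL2L1, BAK1, BID and BCL2L11 were not.

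BCL2L1, which encodes BCL-XL, was read by 1 probe for NM_138578. Its 10 spots had a lowest, median and highest signal of 263, 300 and 346 in #1 siHOTAIR-transfected cells, and the 9 spots kept on the siGFP array had 292, 313 and 335. The arrays overlapped, and the ratio was below 0 at 8 of 9 positions. The mean log2 ratio was -0.13 with a measurement SD of 0.04. MCL1, a short-lived protein that binds BAK1 and several BH3-only members, read 1497 and 1405 after #1 siHOTAIR and 1807 and 1879 after siGFP. Both spots were lower, and the log2 ratio of -0.39 with a measurement SD of 0.05 equals 1.31-fold. It was the largest difference among the anti-apoptotic members.

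BAX, an effector that moves from the cytosol to the mitochondrion, had the lowest ratio among the members, and its probes disagreed. The probe for NM_138764 had 10 spots, with a lowest, median and highest signal of 14731, 15941 and 16804 in #1 siHOTAIR-transfected cells and of 21853, 23331 and 24409 in siGFP-transfected cells. All 10 positions were lower and the highest #1 siHOTAIR spot lay far below the lowest siGFP spot. The log2 ratio was -0.61, and it ran from -0.65 to -0.55 over the spots. The top rows of the array held more spots with 2-fold ratios than the other rows, 3.62% against 2.94% of spots well above background on both arrays, and BAX had 2 spots there with -0.60 and 8 elsewhere with -0.61. For BCL2 the 5 spots in the top rows gave 0.29 and the other 5 gave 0.22. The second BAX probe, for NM_004324, had signals of 457 and 429 against 412 and 396. Both of its spots were slightly higher, with a log2 ratio of 0.09 and a measurement SD of 0.07. The ratios of the 2 BAX probes thus differed by 0.69 on the log2 scale. Among 711 pairs of probes of 1 gene with different accessions, the median absolute difference was 0.25, and 25.7% of the pairs differed by at least 0.5. The accession names the transcript a probe was matched to, and whether its bases are particular to that transcript was not tested.

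BAK1, the effector that resides in the mitochondrial membrane, read 1471 and 1440 after #1 siHOTAIR, and 1512 and 1600 after siGFP. Both spots were lower, and the log2 ratio was -0.14 with a measurement SD of 0.05. The median of the effectors was -0.37, against -0.13 for the anti-apoptotic genes, a difference of -0.25. The measurement SD of 0.04 computed for this comparison holds for a difference of means and not of medians. The difference of medians rests on BAX, and it was -0.07 when the median of the probes of each gene was used.

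BAD, a BH3-only protein that is sequestered by 14-3-3 proteins when survival kinases phosphorylate it, had the highest ratio among the members. Its spots read 2420 and 2439 after #1 siHOTAIR, and 1470 and 1521 after siGFP. The spots of each array were close to each other and far from those of the other array. The log2 ratio was 0.65 with a measurement SD of 0.04, and the spots gave 0.67 and 0.64. PMAIP1, which encodes the MCL1-binding NOXA, was the other one of the 5 BH3-only members that was higher. It had signals of 232 and 239 against 149 and 182. The log2 ratio was 0.47 with a measurement SD of 0.09, and the spots differed more than those of BAD, with 0.59 and 0.35.

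BBC3, which encodes PUMA, went the other way. Its signals were 1787 and 1725 after #1 siHOTAIR, and 2421 and 2286 after siGFP. Both spots were lower, with log2 ratios of -0.48 and -0.45, and the mean was -0.47 with a measurement SD of 0.04. PMAIP1 and BBC3 therefore had ratios of nearly equal size and opposite sign. BID, which caspase-8 cleaves to join the death receptor pathway to mitochondria, was read by 2 probes for the same accession. The one with a single spot had 4417 against 4473 and the one with 2 spots had 4053 and 4343 against 4313 and 4099. Their log2 ratios were -0.06 and -0.05, and the spots of the latter overlapped between the arrays.

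BCL2L11, which encodes BIM and is spliced into many isoforms, had 3 probes that did not point one way. The probe for NM_138621 read 384 and 422 after #1 siHOTAIR, and 422 and 455 after siGFP. Its log2 ratio was -0.17 with a measurement SD of 0.07, and its spots did not overlap once scaled. A probe for NM_207002 with 2 spots had signals of 441 and 502 against 290 and 340, a log2 ratio of 0.54 with a measurement SD of 0.09. Another probe for NM_207002, with 1 spot, had 322 against 279 and a ratio of 0.16, with a measurement SD of 0.13. The first probe had the highest mean signal and gave the value used for the gene. The probes that share NM_207002 differed by 0.38 in log2 ratio, where the median over 2999 pairs of probes with 1 accession was 0.16. The probe for NM_138621 and the brighter one for NM_207002 differed by 0.71.

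**Figure D2:**
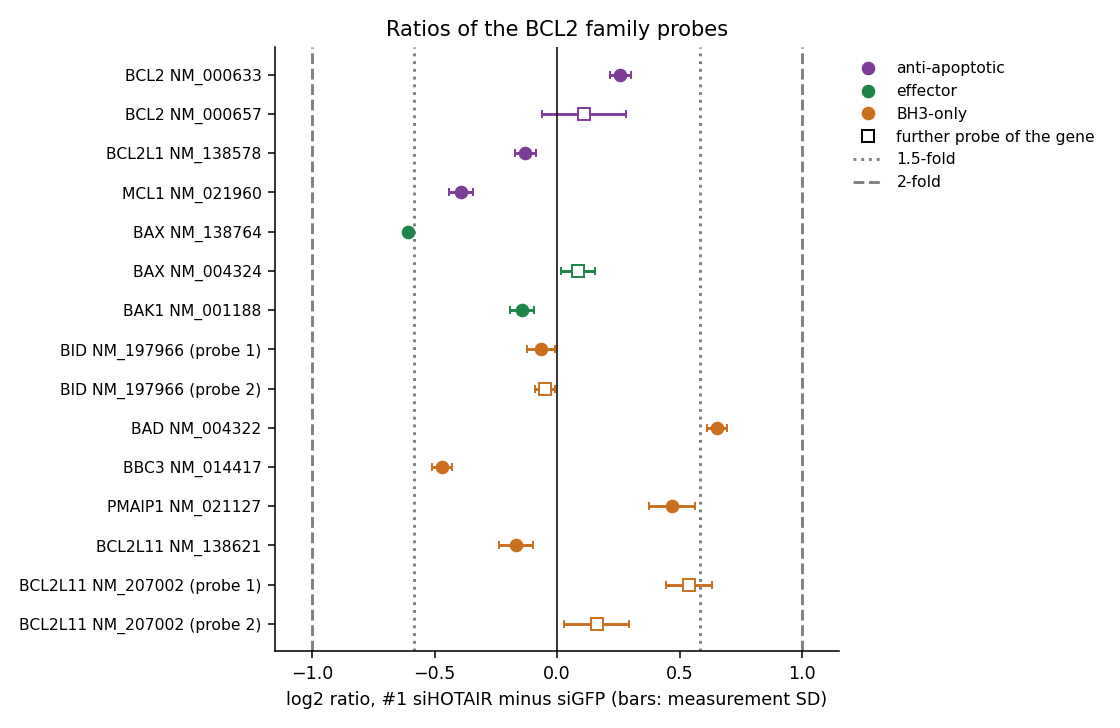
The log2 ratio of #1 siHOTAIR over siGFP (horizontal axis) is plotted for the 15 probes, coloured by role, with bars for the measurement SD, open squares for further probes of a gene, and lines at 1.5-fold and 2-fold. BAD at 0.65 and BAX NM_138764 at -0.61 lie just past the 1.5-fold lines, and the further BAX and BCL2L11 probes lie on the other side of 0 from the probe used for the gene.

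By role, the median log2 ratio was -0.13 for the 3 anti-apoptotic genes, -0.37 for the 2 effectors and -0.06 for the 5 BH3-only genes. The median of the BH3-only genes exceeded that of the anti-apoptotic ones by 0.07. The measurement SD of 0.04 computed for this comparison holds for a difference of means and not of medians. These 2 medians are the values of BID and BCL2L1, whose own measurement SDs were 0.06 and 0.04. The difference of medians was 0.29 by the median of the probes of each gene and 0.024 with normexp background correction. The BH3-only genes themselves ran from -0.47 to 0.65. The range within the BH3-only role was thus wider than the difference between the roles. Spots of both arrays did not overlap in 2 of 3 member probes with 10 spots, against 41.9% of all compared probes with 10 spots. Among member probes with 2 spots, 8 of 10 did not overlap, against 71.0% of all such probes.

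BAX and BAD are the members past 1.5-fold, so their promoters are shown. Each window runs from 250 bases before to 50 bases after the annotated start, on the sense strand, from RefSeq on GRCh38.p14. Capitals mark the GC box (GGGCGG or its reverse complement CCGCCC), the CCAAT box (CCAAT or ATTGG) and the E box (CACGTG, the same on both strands). The TATA box (TATAAA or TTTATA) was searched as well and was found in neither window. The motifs shown share no bases with each other. BAX lies at chr19:48954625-48954924 on the plus strand and BAD at chr11:64284655-64284954 on the minus strand.
BAX: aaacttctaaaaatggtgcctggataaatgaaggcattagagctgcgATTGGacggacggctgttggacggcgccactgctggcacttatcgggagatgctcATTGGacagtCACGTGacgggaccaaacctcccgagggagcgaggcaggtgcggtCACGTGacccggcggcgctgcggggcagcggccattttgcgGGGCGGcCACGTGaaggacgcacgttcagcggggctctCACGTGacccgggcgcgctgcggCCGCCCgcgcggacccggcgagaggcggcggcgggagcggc
BAD: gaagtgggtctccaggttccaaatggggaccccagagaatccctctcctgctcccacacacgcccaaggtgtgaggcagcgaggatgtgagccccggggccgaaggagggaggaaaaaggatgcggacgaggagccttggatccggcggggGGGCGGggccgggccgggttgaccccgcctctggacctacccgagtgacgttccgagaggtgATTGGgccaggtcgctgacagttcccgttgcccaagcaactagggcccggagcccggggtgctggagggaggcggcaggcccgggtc
A second annotated BAD start lies in a window that overlaps this one and holds the same pair of motifs. The BAX window held 4 E boxes, which began 138, 93, 45 and 14 bases before the start, beside 2 GC boxes and 2 CCAAT boxes. The BAD window held no E box. It held 1 GC box 99 bases and 1 CCAAT box 37 bases before the start. An E box was present in 7.26% of all 35116 windows, a GC box in 45.0% and a CCAAT box in 34.6%. RefSeq windows were matched for 9 of the 10 members, 15 windows in all. Of these, 4 held an E box (genes BAX, BBC3 and BID), 11 a GC box and 6 a CCAAT box. Windows of BID and of BAD overlap and share motifs, so these counts hold repeats. By gene, a GC box was found in 7 of the 9, a CCAAT box in 5 and an E box in 3. These matches describe letters in a window and not binding.

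Of 13 other genes of the BCL2 family, 11 could be compared and none differed 2-fold. Their median log2 ratio was -0.19. The lowest value was that of BNIP3, a mitochondrial BH3-like protein of mitophagy and hypoxia, with a signal of 10752 against 19690 and a ratio of -0.92, from spots of -0.93 and -0.91. BIK, a BH3-only gene of the endoplasmic reticulum, had 82.4 against 138 and a ratio of -0.79. The highest was that of BCL2A1, an anti-apoptotic gene best known from blood cells, with 4598 against 2749 and a ratio of 0.70 by a single spot. The second BCL2A1 probe, with 2 spots for the same accession, had 8.21 against 6.24 and exceeded background on neither. HRK, a BH3-only gene of neurons, had a ratio of 0.51, but its spots gave -0.16 and 1.17. BOK, an effector-like gene, had a ratio of -0.04 and BCL2L2, which encodes the anti-apoptotic BCL-W, one of -0.19. Of the leukocyte markers compared, CD68 had a ratio of 0.63, PTPRC 0.75 by a single spot and CD14 -0.17. A second PTPRC probe gave -0.83, but it had 12.8 against 36.4 and was well above background on the siGFP array only. No lower bound of its fold could be given, and the remaining PTPRC probes exceeded background on neither array. The part of leukocyte markers in the value of BCL2A1 was not tested.

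Downstream of the membrane, none of 12 genes compared for the apoptosome, caspases and mitochondrial death proteins differed 2-fold. Their median ratio was 0.06, with 8 above and 4 below 0. ENDOG, a mitochondrial nuclease, had the highest ratio with 0.49, and HTRA2, a protease that antagonizes inhibitor of apoptosis proteins, had 0.29. CASP6, an executioner caspase, was among the lowest with -0.41. APAF1, the scaffold of the apoptosome, did not exceed background on either array.

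Of 8 inhibitor of apoptosis genes and partners, 6 were compared, 1 was at least 2-fold higher and none was 2-fold lower. The median ratio was 0.29, with 5 of 6 above 0. BIRC7, which encodes livin, had a signal of 182 against 83.8, a log2 ratio of 1.08 with a measurement SD of 0.17 and spots of 0.85 and 1.31. BIRC6, a giant ubiquitin ligase of the same family, had 0.71 by a single spot. XIAP, the direct inhibitor of caspases, had 0.04 and NAIP had -0.09.

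In the death receptor pathway, 10 of 14 genes were compared and 1 was past 2-fold. TNFSF10, which encodes the ligand TRAIL, was well above background on the #1 siHOTAIR array only, with a signal of 59.4 against 7.10 by a single spot, and was at least 2.01-fold higher. The other TNFSF10 probe, with 10 spots, exceeded background on neither array. CASP8, the initiator caspase that cleaves BID, had a ratio of -0.79 with a measurement SD of 0.17, from dim signals of 58.5 against 98.5. TNFRSF10B, a TRAIL receptor, had 12743 against 17843 and a ratio of -0.54, but its spots gave -0.71 and -0.37. TNFRSF1A, a receptor of tumour necrosis factor, had the highest ratio measured on both arrays with 0.40, followed by the caspase-8 regulator CFLAR with 0.26. The dimmer CFLAR probe, for another accession, gave -0.44.

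None of 13 genes listed as mitochondrial outer membrane partners differed 1.5-fold, and the median ratio was -0.01. The list also holds genes for proteins of the inner membrane and of the endoplasmic reticulum. The highest were SLC25A5, an adenine nucleotide carrier, with 0.28 and VDAC3, a porin, with 0.26. The lowest were TMBIM6, a suppressor of BAX-induced death, with -0.26 and BCAP31, a caspase-8 substrate, with -0.24. A second TMBIM6 probe for the same accession gave 0.09.

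Of 15 transcription factors that act on genes of the family, none was past 2-fold and the median ratio was -0.05. JUN, a subunit of AP-1, had a signal of 483 against 870 and the lowest ratio, -0.89, and FOXO1, an activator of BCL2L11, had -0.47. STAT3, which acts on MCL1 and BCL2L1, had the highest ratio with 0.64, although its spots gave 0.31 and 0.97 and its second probe, with 10 spots, gave -0.02. TP73 had 0.46, and its other probe gave -0.05.

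Among 23 genes compared for binding, phosphorylation and turnover of the proteins, none was past 2-fold and the median ratio was 0.12. USP9X, a deubiquitinase of MCL1, had the highest ratio with 0.80 by a single spot of 422 against 234. HUWE1, the ubiquitin ligase also called MULE that targets MCL1, had 0.65, whereas its second probe gave 0.20. PIM1, a kinase that phosphorylates BAD, had the lowest ratio with -0.47, and YWHAZ, a 14-3-3 protein, had -0.23.

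**Figure D3:**
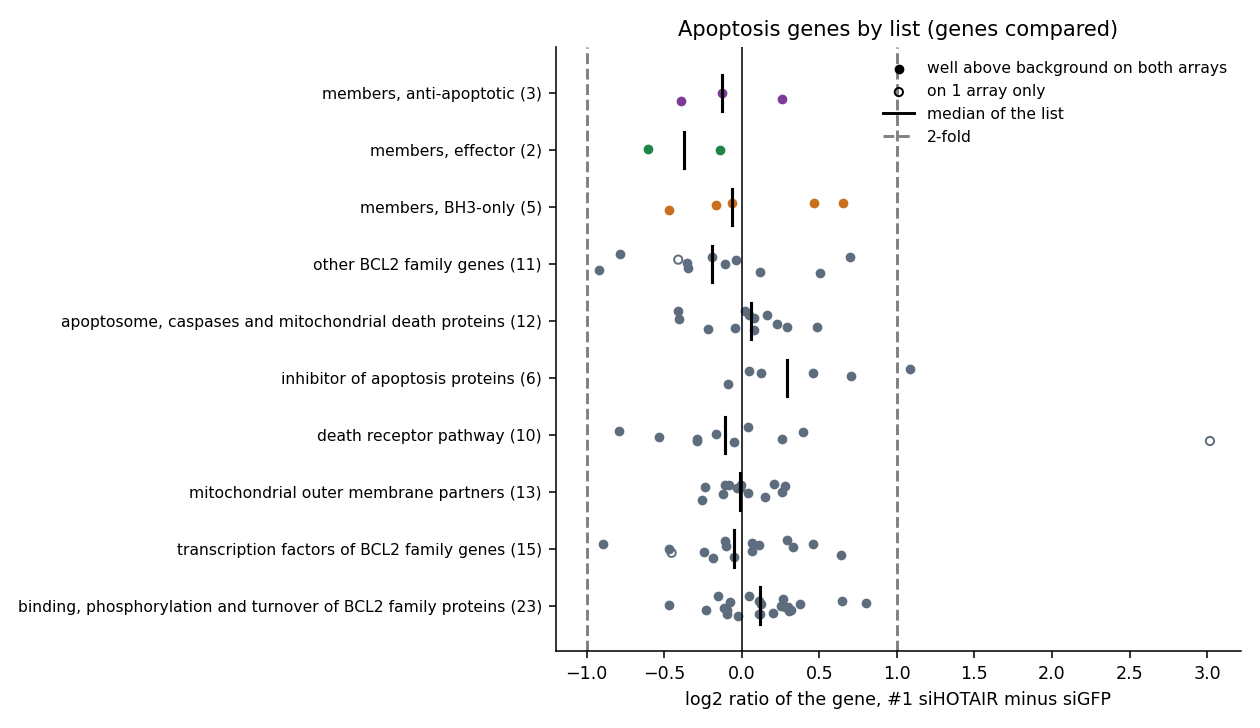
The log2 ratio of each gene compared (horizontal axis) is plotted by list, with filled points for genes well above background on both arrays, open points for genes so on 1 array only, a bar at the median and dashed lines at 2-fold. BIRC7 and TNFSF10 are the points past 2-fold, TNFSF10 as measured at 3.02 although only its lower bound can be stated, and the medians run from -0.37 for the effectors to 0.29 for the inhibitors of apoptosis.

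The direction of the ratio was stable for 8 of the 10 members under the 13 processing alternatives described with the methods. BID was the first exception, with a ratio of 0.03 when the arrays were scaled to the spike-in RNA. BCL2L11 was the second, with 0.16 when the median of its probes was used. The stricter filter, no filter and dim signals at their bound could not change a member, as all 52 member spots were well above background. Keeping outlier spots changed BCL2L1 only. No alternative took the second BAX probe alone, which gave 0.09. The ratio of BAX ran from -0.64 to -0.26, the latter by the median of its probes, and the difference was smaller than 1.5-fold with quantile normalization, without scaling and with the spike-in RNA as well. The ratio of BAD ran from 0.57 to 0.75 and fell just short of 1.5-fold without background correction and with normexp. Spike-in scaling moved all 10 members, and the median of all named genes, upward by 0.10.

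**Figure D4:**
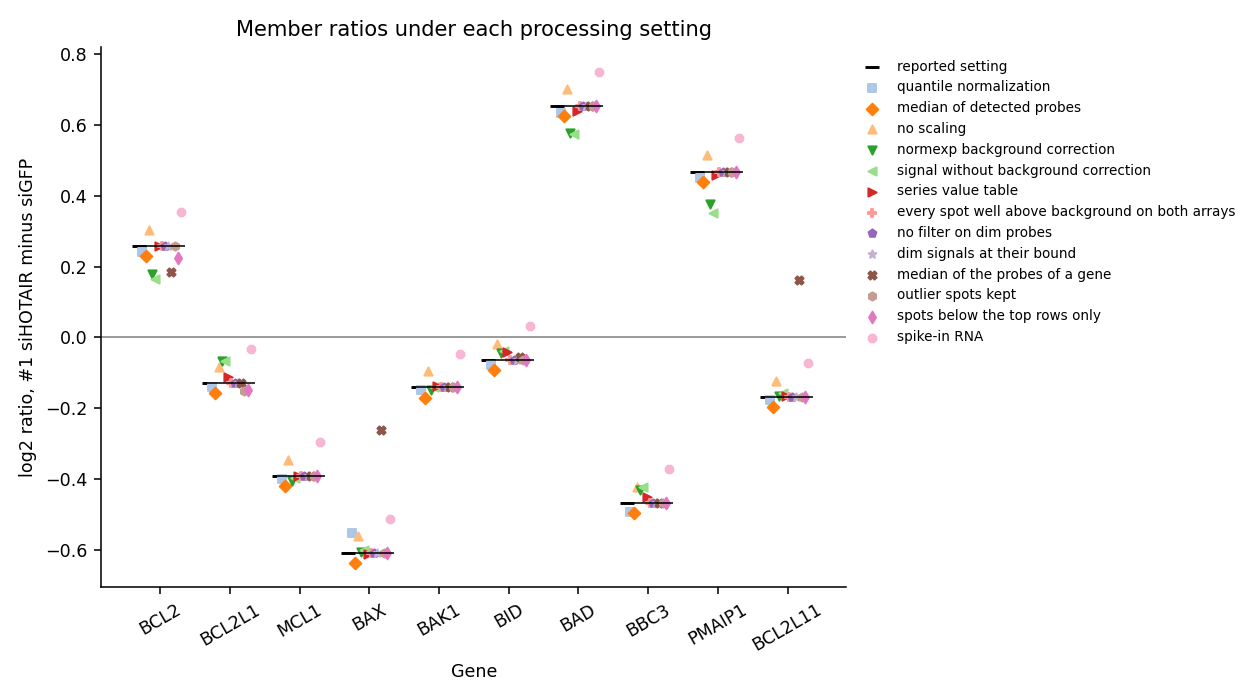
The log2 ratio of each member (vertical axis) is plotted under the reported setting (black line) and 13 alternatives (coloured symbols). The spread over settings is small beside the distance between BAX and BAD, and only BID and BCL2L11 have symbols on both sides of 0.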

How the data were processed

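RNA of #1 siHOTAIR- and siGFP-transfected SBC-3 cells was labelled with Cy3, hybridized to 1 array each and read by the authors with Agilent Feature Extraction 10.10.1.1. Both arrays lie on 1 slide and were read in 1 scan. The deposited intensity is background-subtracted, detrended within the array and not normalized between arrays. The deposited value table of the series equals the background-subtracted intensity (largest difference 0).

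Signals were scaled to the 75th percentile of the spots that are not controls, outlier spots were left out, and log2 values were averaged over the spots of each probe (Python 3.11.15, pandas 2.3.3). Probes with at least 50% of spots well above background on 1 array or both were compared. For a gene with several probes, the brightest on average gave its value. Where 1 array alone exceeded background, the fold was given as a lower bound against the lowest signal well above background on the other array. No bound was given where the mean on the brighter array did not exceed that signal after scaling. Accessions were matched without versions to a RefSeq table of GRCh38.p14, which named 58.5% of the probes. The measurement SD came from 652 probes with 10 spots in 6 levels of signal. With 1 array a group no test was run, and the number of arrays limits the precision. The calling was tested on simulated data with changes larger than 2-fold in bright probes, which does not cover smaller differences or dim probes.

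Named genes were every member, HOTAIR, ACTB and GAPDH, list genes past 2-fold, and the 2 highest and 2 lowest genes of each list measured on both arrays. Second probes of HUWE1, TNFSF10, BCL2A1, STAT3, TP73, CFLAR and TMBIM6, BOK, BCL2L2, APAF1 and the markers were added after values were seen. Some items that this rule names are not reported here. The members and lists were chosen with earlier results of these data known. Alternatives were no scaling, scaling to the median of detected probes, quantile normalization, normexp in limma 3.58.1 with an offset of 50, the uncorrected signal, the value table with a floor of 10, stricter and no filters, dim signals at their bound, the median of the probes of a gene, outlier spots kept, and thresholds of 1.5-fold and 3-fold. Spike-in scaling and leaving out the top 144 of 384 rows were added after seeing the data. As the files give no mean signal, the median signal of a spot was used for normexp and without correction.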

Additional observations from a re-analysis of the deposited data

How the results depend on the processing

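No member passed 2-fold under any alternative, spike-in scaling and leaving out the top rows included, and 2 members did at the threshold of 1.5-fold. The difference of the medians of BH3-only and anti-apoptotic genes, 0.07, was 0.024 with normexp and 0.29 by the median of the probes of a gene. The difference of effectors and anti-apoptotic genes, -0.25, was -0.31 with normexp, -0.30 with the uncorrected signal and -0.072 by the median of the probes of a gene. The last setting brings in the further BAX and BCL2L11 probes, whose ratios differ in sign from those used. Over all named genes, 356 were higher and 444 lower at 2-fold, against 86 and 86 with the uncorrected signal, 111 and 104 with normexp, 163 and 167 with every spot well above background on both arrays, 271 and 238 with dim signals at their bound, 688 and 699 without a filter, 200 and 309 without the top rows, 169 and 165 at 3-fold, and 439 and 369 with the spike-in RNA. No paired analysis was possible because each group holds 1 array. Signal over background limits the dim genes, since the spot ratio had a median SD of 0.24 at the dimmest level of signal and 0.04 at the brightest. The BCL2, BCL2L1 and PMAIP1 probes and the further BCL2L11 probes lie in the 2 dimmest levels.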
